A study of Homo sapiens with 7 samples.

Results

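In Kasumi-1 cells, a human acute myeloid leukemia line that carries the t(8;21) translocation, 9449 of 19467 protein-coding genes were nearest to at least 1 AML1 or AML1-ETO binding site. Of all protein-coding genes, 1204 (6.18%) had AML1 sites only, 2483 (12.8%) had AML1-ETO sites only and 5762 (29.6%) had both. The remaining 10018 genes (51.5%) had neither. Each gene was placed by assigning the summit of every ChIP-seq peak to the closest transcription start site (TSS) of a protein-coding transcript, so a gene owns every summit nearer to its own starts than to those of any other gene, however far away. AML1 contributed 11692 summits, 11686 of them on the chromosomes used, and AML1-ETO 18087. The longer AML1-ETO list bears on these counts. With only its first 11692 peaks in the deposited order, 2078 genes were AML1 only, 1309 AML1-ETO only and 4888 both, so the larger exclusive class changed. AML1-ETO summits at AML1-ETO-only genes stood at a median of 66.2% of the way down that list. Length and order of the list were therefore not separated.

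The cells were grown from an established line derived from a peripheral blood myeloblast and the labels name no treatment, so that all libraries share the translocation and its fusion protein. Chromatin was precipitated with an antibody to the C-terminus of AML1, which is missing from the fusion protein, or with an antibody to ETO. The latter reads the fusion and would also read ETO itself. The ETO gene, RUNX1T1, had no H3K4me3 summit within 1 kb of a start, but neither had the myeloblast genes MPO and KIT. ETO protein was not measured, so its part in the AML1-ETO list is unknown. N-CoR, p300 and H3K4me3 were precipitated from the same line and are used below as readouts that played no part in placing the genes. Inside the deposited lists, the N-CoR peaks are named as ETO peaks and the p300 and H3K4me3 peaks as AML1 peaks, and each list was taken as what its sample is labelled. The lists are not copies of each other: 92 of 10004 N-CoR windows coincided exactly with an AML1-ETO window, and 38 of 11020 p300 and 0 of 19632 H3K4me3 windows with an AML1 window. The 2 biological replicates of each antibody were pooled by the authors before peaks were called, which leaves 1 list per antibody. Differences between lists therefore have no replicate error, no test was possible, and the 95% intervals given are exact binomial intervals that cover counting error only. The lists hold positions without heights or read counts, so the depth behind each summit is unknown. A gene without an AML1-ETO site is a gene to which no peak past the authors' threshold of 1e-20 was assigned. Antibody and library cannot be told apart.

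AML1, the product of RUNX1, binds the short sequence TGTGGT through its runt domain and is strengthened in this by its partner CBFB. It is required for the formation of blood stem cells and for the maturation of several blood lineages. In the fusion protein the runt domain is kept but the part that follows it is replaced by ETO, a protein that binds the co-repressor N-CoR and histone deacetylases. The co-activator p300 acetylates histones at active enhancers and promoters, and H3K4me3 marks active promoters. As a check of the cell type, an H3K4me3 summit lay within 1 kb of a start at 8 of 10 myeloblast marker genes, the exceptions being MPO and KIT. The same held for 1 of 5 T cell genes (CD8A), 1 of 4 B cell genes (PAX5), 1 of 5 erythroid genes (EPOR) and 0 of the 3 hepatocyte, 2 keratinocyte and 2 neuronal genes.

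The sequences under single summits of the genes with most sites are shown as examples and do not stand for their classes, in which 30.8% of AML1-only and 22.1% of AML1-ETO-only windows held TGTGGT over all positions. The 5 windows below, each 100 bp around an AML1 summit and written on the plus strand of GRCh37, come from the AML1-only genes with most summits. At each gene the window nearest to a start that touched no annotated UTR was taken. They lie at chr3:142854158-142854257, between genes and 15595 bp downstream of the CHST2 start; chr15:101477522-101477621, in an intron of LRRK1; chr17:59887629-59887728, in an intron of BRIP1; chr12:70711658-70711757, in an intron of CNOT2 and on an exon of a long non-coding RNA; and chr12:89199635-89199734, 225057 bp upstream of KITLG and in an intron of a long non-coding RNA. Capitals mark TGTGGT or its reverse complement ACCACA, which is present in all 5 and stands 2 times in the CNOT2 window.
CHST2: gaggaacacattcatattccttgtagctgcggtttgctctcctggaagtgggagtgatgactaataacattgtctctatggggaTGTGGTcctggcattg
LRRK1: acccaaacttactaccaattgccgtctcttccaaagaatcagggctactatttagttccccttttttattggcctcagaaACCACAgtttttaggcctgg
BRIP1: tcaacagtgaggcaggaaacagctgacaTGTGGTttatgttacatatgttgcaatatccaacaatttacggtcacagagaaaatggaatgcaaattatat
CNOT2: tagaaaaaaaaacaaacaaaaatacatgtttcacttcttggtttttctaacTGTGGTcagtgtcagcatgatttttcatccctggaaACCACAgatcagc
KITLG: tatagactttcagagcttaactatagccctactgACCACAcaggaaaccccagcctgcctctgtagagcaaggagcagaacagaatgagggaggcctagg

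The 5 windows below are the counterparts from the AML1-ETO-only genes with most summits, and none of them holds TGTGGT on either strand. They lie at chr15:31658097-31658196, in an intron of KLF13 and 210 bp upstream of an internal start; chr21:45431711-45431810, 429 bp upstream of TRAPPC10; chr15:65133715-65133814, 317 bp upstream of PLEKHO2; chr1:27928775-27928874, in an intron of AHDC1 and 1165 bp from its nearest start; and chr18:12407754-12407853, 91 bp upstream of PRELID3A. The AML1-only windows shown are 6965 bp or more from a start while these lie at or near promoters, and the share of summits that hold the motif is given below for like positions.
KLF13: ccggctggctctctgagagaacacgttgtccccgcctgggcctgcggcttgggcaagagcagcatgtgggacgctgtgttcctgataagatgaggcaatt
TRAPPC10: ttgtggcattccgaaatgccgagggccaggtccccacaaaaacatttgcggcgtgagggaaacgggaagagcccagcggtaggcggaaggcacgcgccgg
PLEKHO2: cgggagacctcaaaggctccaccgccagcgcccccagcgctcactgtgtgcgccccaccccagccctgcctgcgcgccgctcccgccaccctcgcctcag
AHDC1: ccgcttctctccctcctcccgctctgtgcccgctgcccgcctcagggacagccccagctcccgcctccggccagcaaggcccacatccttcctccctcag
PRELID3A: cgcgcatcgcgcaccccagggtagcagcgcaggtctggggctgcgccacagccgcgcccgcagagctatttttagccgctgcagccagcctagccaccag

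The next windows come from 3 of the genes with most summits of both lists, each being the AML1 window nearest to a start that overlapped AML1-ETO and touched no annotated UTR. The windows shown hold the motif at GSE1 but not at RUNX1 or SEPTIN9, nor do those chosen by the same rule at BCOR and ID2, which are not printed. At RUNX1 an AML1 window closer to a start, at 8 bp, also held it and is not shown, while at SEPTIN9 the AML1 window at 16 bp did not. The windows shown lie at chr16:85587805-85587904, in an intron of GSE1, chr21:36423773-36423872, in an intron of RUNX1, and chr17:75401030-75401129, in an intron of SEPTIN9. In each, the AML1-ETO summit stood close to the AML1 summit, at 5 bp in GSE1, 19 bp in RUNX1 and 31 bp in SEPTIN9.
GSE1: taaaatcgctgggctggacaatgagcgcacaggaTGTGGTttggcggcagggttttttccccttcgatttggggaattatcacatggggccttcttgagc
RUNX1: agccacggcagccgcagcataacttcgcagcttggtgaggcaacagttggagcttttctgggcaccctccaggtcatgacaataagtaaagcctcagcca
SEPTIN9: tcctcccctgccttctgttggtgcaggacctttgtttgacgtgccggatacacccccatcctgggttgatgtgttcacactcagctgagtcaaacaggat

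Genes of both have at least 2 summits by their definition, so the number of summits per gene is given as a description. Among AML1-only genes, 92.5% had 1 summit and none had more than 4, whereas 77.0% of AML1-ETO-only genes had 1 and the maximum was 8. Genes of both had a median of 3 summits over the lists together and a maximum of 41, and 31.8% of them had 5 or more. Exclusive binding became rare as summits accumulated at a gene. AML1 stood alone at 1114 of the 4463 genes with 1 AML1 summit (interval 23.7 to 26.3%), at 5.77% of the 1420 genes with 2, and at 0 of the 257 genes with 5 or more, which allows a share of up to 1.43%. AML1-ETO stood alone at 44.5% (43.0 to 46.0) of the 4302 genes with 1 AML1-ETO summit, at 23.8% of the 1803 genes with 2 and at 2.04% of the 784 genes with 5 or more. The stretch of genome nearest to a gene also differed, with medians of 54.8 kb for AML1-only genes, 65.4 kb for AML1-ETO-only genes, 111 kb for genes of both and 43.5 kb for genes with neither. A wider stretch gives more room for a summit of either list, and its part in the classes was not tested.

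Seen from each list, 82.7% of the 6966 genes with AML1 also had AML1-ETO, and 69.9% of the 8245 genes with AML1-ETO also had AML1. Of the 5762 genes of both, 2537 had more AML1-ETO than AML1 summits, 2730 (47.4%) had equal numbers and 495 (8.59%) had more AML1 summits. The plot of summits per gene shows the most heavily occupied genes above the line of equal counts.

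**Figure D1:**
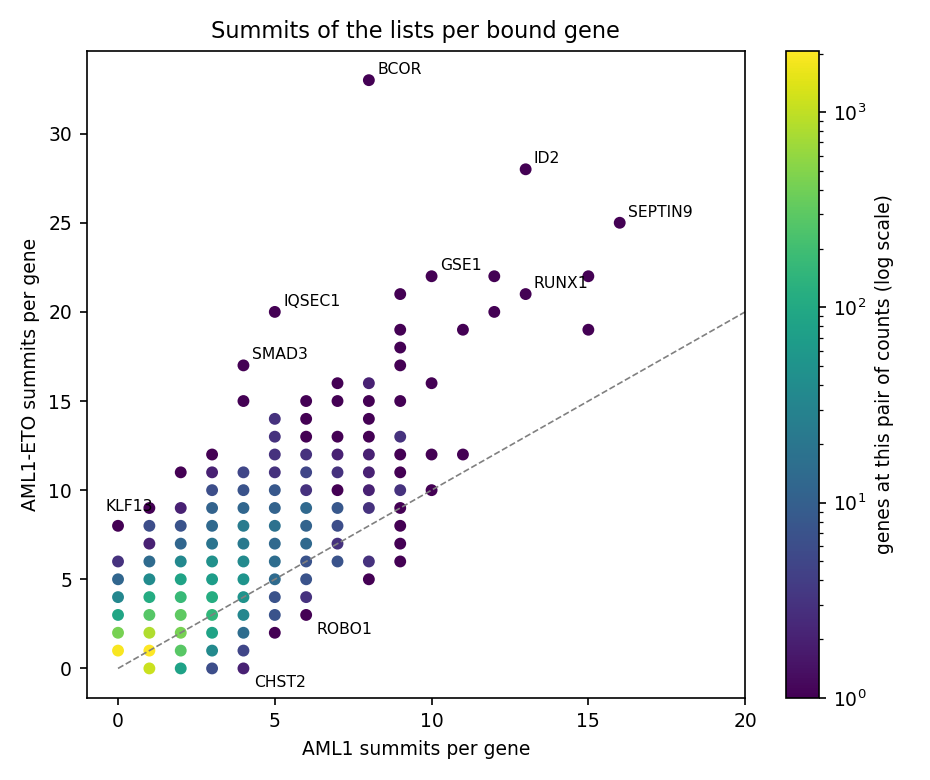
AML1 summits (x axis) against AML1-ETO summits (y axis) for every gene with a site of either list; colour gives the number of genes at each pair of counts on a log scale and the dashed line marks equal counts. KLF13, with 8 AML1-ETO summits and no AML1 summit, and CHST2, with 4 AML1 summits and no AML1-ETO summit, stand on the axes, and BCOR lies farthest above the line at 8 AML1 and 33 AML1-ETO summits.

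Among AML1-only genes, CHST2 and LRRK1 had 4 summits each. CHST2 encodes a carbohydrate sulfotransferase, and its summits lay 15595, 50481, 243709 and 324154 bp downstream of its start, the closest AML1-ETO summit to any of them being 82270 bp away. LRRK1, a kinase of the ROCO family, had summits at 18010, 83879, 98955 and 116418 bp, all inside the gene. In each of these genes 3 of the 4 windows held TGTGGT, and none overlapped an N-CoR or p300 window. KITLG, which encodes the ligand of the receptor KIT, had 3 AML1 summits, all far upstream at 225057, 235523 and 365842 bp. BRIP1, a DNA helicase that acts with BRCA1, had 3 summits at 12, 36902 and 96399 bp. CNOT2, a subunit of the CCR4-NOT deadenylase, had 3 at 14, 506 and 6965 bp, and p300 overlapped the nearest 2. GIMD1, DNAH5 and PTPRD had 3 each, all 290798 bp or more from a start. The remaining 2 of the 10 were ATP5F1A, a subunit of ATP synthase with summits at 1 and 197 bp, and MDN1, an ATPase of ribosome assembly with summits at 2 and 25345 bp. ATP5F1A and MDN1 were taken from 82 AML1-only genes tied at 2 summits for their closeness to a start, so their promoter position was fixed by that choice. Among the others, BRIP1 and CNOT2 had a summit within 1 kb of a start and the rest had none. Of the 10, only GIMD1 (2 of 3) and DNAH5 (1 of 3) had a summit overlapped by N-CoR.

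The leading AML1-ETO-only genes carried more summits. KLF13, a Krüppel-like transcription factor, had 8 AML1-ETO summits, 3 of them within 1 kb of a start, and the closest AML1 summit to any of these was 47799 bp away. N-CoR overlapped 3 of the 8 and p300 none. TRAPPC10, a subunit of a vesicle tethering complex, had 6 summits within 13511 bp, 3 of them within 1 kb. PLEKHO2 also had 6, of which N-CoR overlapped 4 and p300 overlapped 2, and here an AML1 summit of a neighbouring gene lay 9195 bp from the outermost. AHDC1 had 6 as well. PRELID3A, ARHGEF6, NOS3, KLF16, TRERF1 and ARHGEF17 had 5 each. In all, 16 AML1-ETO-only genes had 5 or more summits, and those tied at 5 were taken in order of distance to a start. The closeness of these genes to starts is therefore partly fixed by that choice. NOS3 is the endothelial nitric oxide synthase, and all 5 of its summits lay within 1962 bp of a start. At KLF16 an AML1 summit of another gene lay closer than at PLEKHO2, 1431 bp from an AML1-ETO summit. TGTGGT was present in 4 of the 8 KLF13 windows, but in none of the 6 at TRAPPC10, the 6 at PLEKHO2 or the 5 each at NOS3, KLF16 and TRERF1. All 10 of these genes had H3K4me3 at a start, as had 9 of the 10 leading AML1-only genes.

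**Figure D2:**
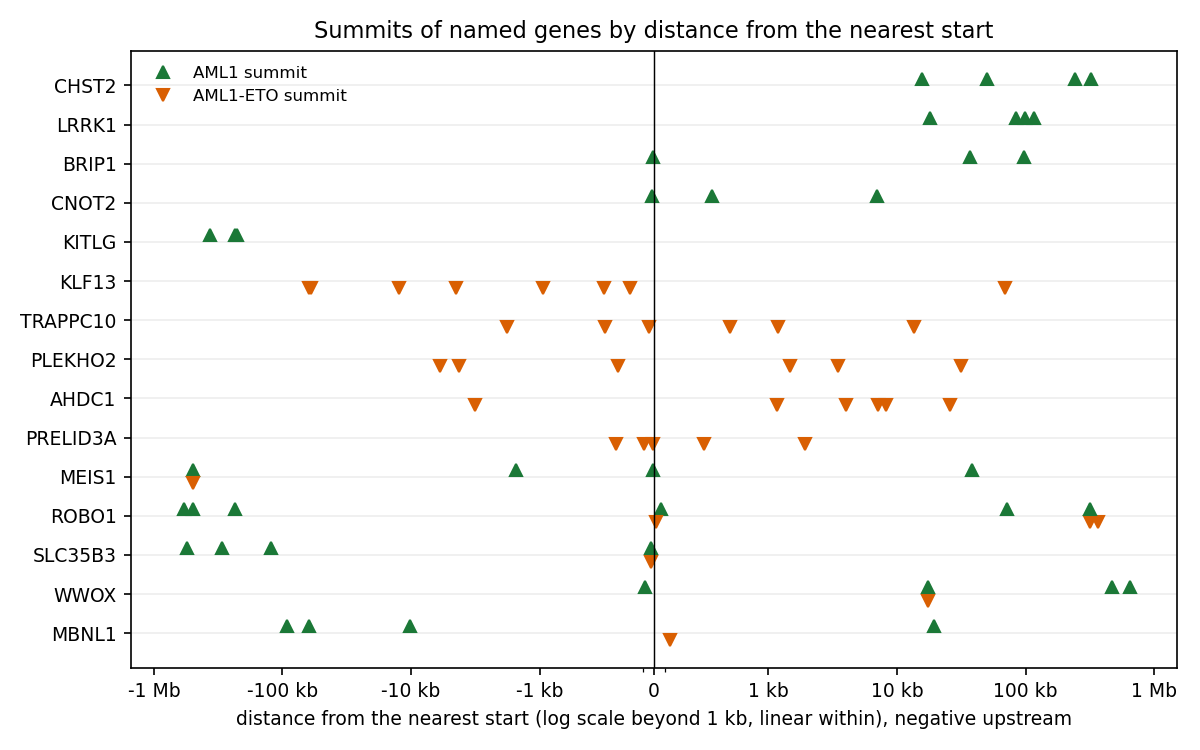
Position of each summit relative to the nearest start, negative upstream (x axis, linear within 1 kb and logarithmic beyond), for the 5 AML1-only and the 5 AML1-ETO-only genes with most summits and the 5 genes of both with the largest AML1 excess; green triangles are AML1 and orange triangles AML1-ETO summits. The 3 KITLG summits lie 225057 to 365842 bp upstream, while the 5 PRELID3A summits all lie within 1941 bp of a start. PRELID3A was taken from genes tied at 5 summits for its closeness to a start.

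Genes of both were led by SEPTIN9, BCOR and ID2, tied at 41 summits over the lists together. The stretch of genome nearest to them was wide, at 473, 939 and 889 kb, against a class median of 111 kb. Among the other leading genes it ran from 151 kb at DENND3 to 1182 kb at MYC. No summit of ID2 lay within 1 kb of a start, and the farthest stood 779510 bp away. The part of this width in the counts was not tested. SEPTIN9, a cytoskeletal septin gene, had 16 AML1 and 25 AML1-ETO summits, of which 15 of each list were in overlapping windows. BCOR, a co-repressor of BCL6 that is mutated in myeloid leukemia, had 8 and 33. ID2, an inhibitor of basic helix-loop-helix factors, had 13 and 28, and every one of its 13 AML1 summits overlapped an AML1-ETO summit. RUNX1 itself had 13 and 21, with 11 overlapping pairs. GSE1 had 10 and 22, and ZFP36L2, an RNA-binding protein that speeds mRNA decay, had 11 and 19. On chromosome 8, TRIB1 had 15 and 19, DENND3 15 and 22, ST3GAL1 12 and 22 and MYC 12 and 20. Chromosome 8 carried 0.888 AML1 and 1.28 AML1-ETO summits per gene, fewer than chromosome 10, with 1.05 and 1.47. The largest AML1-ETO excess after BCOR was at IQSEC1 (5 AML1, 20 AML1-ETO), ID2, SMAD3 (4 and 17) and GSE1. At IQSEC1 and SMAD3 every AML1 summit was in an overlapping pair, so that the added AML1-ETO summits accounted for the excess.

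AML1 exceeded AML1-ETO by 3 summits at each of MEIS1, ROBO1, SLC35B3, WWOX and MBNL1. MEIS1, a homeobox factor of blood stem cells and of leukemia, had AML1 summits 6 and 1530 bp from its start, another within the gene at 38298 bp and the last 494080 bp upstream. Its only AML1-ETO summit was the distant one, where the windows overlapped at 26 bp between summits and N-CoR was present. The promoter of MEIS1 was thus occupied in the AML1 list alone. ROBO1, an axon guidance receptor, had 6 AML1 and 3 AML1-ETO summits, and 6 of these windows held TGTGGT. At MBNL1, a splicing regulator with 4 AML1 and 1 AML1-ETO summits, no windows overlapped.

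Most genes of both were occupied at the same place. In 5196 of 5762 (90.2%, 89.4 to 90.9) at least 1 AML1 window overlapped an AML1-ETO window, and the median gap between the closest pair of summits was 16.0 bp in these genes. The 566 other genes had the lists at different places, with a median gap of 4319 bp and more than 10 kb at 240 of them (42.4%). Of the 566, 104 had AML1 but not AML1-ETO within 1 kb of a start and 100 had the reverse. Genes of this kind included IGF1R (2 AML1 and 4 AML1-ETO summits), FOSL1, NCAM1 and RCOR1. Over all genes of both, 1870 (32.5%) had both lists within 1 kb of a start, 293 (5.09%) AML1 alone, 766 (13.3%) AML1-ETO alone and 2833 (49.2%) neither. An exclusive gene holds no summit of the other list in its stretch of genome by definition, so distances to the other list partly restate the assignment. The median distance to the nearest summit of the other list was 76.6 kb for AML1 at AML1-only genes and 82.1 kb for AML1-ETO at AML1-ETO-only genes, and a summit of the other list lay within 1 kb in 3.22% and 1.26% of cases. These few are sites between a pair of starts that were assigned to different genes, SF3A1 being an example.

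AML1 at AML1-only genes was closest to promoters. There, 59.3% (56.6 to 62.0) of 1304 summits lay within 1 kb of a start, against 39.5% (37.9 to 41.2) of 3265 AML1-ETO summits at AML1-ETO-only genes, a difference of 19.7 percentage points (16.5 to 22.9). Among the first 5000 peaks of each list the difference was 10.8 points. At genes of both, 22.6% of AML1 and 21.8% of AML1-ETO summits did so. The median distance was 202 bp for AML1 at AML1-only genes, 3395 bp for AML1-ETO at AML1-ETO-only genes, and 14520 and 14043.5 bp for AML1 and AML1-ETO at genes of both. Of the summits within 1 kb, 78.4% at AML1-only genes lay upstream of the start, against 60.0% at AML1-ETO-only genes. Beyond 1 kb the order turned, since 33.7% of the remaining summits at AML1-only genes were over 50 kb away, against 18.9% at AML1-ETO-only genes. AML1-only summits therefore fell into a promoter group and a distant group, with 10.9% between 1 and 10 kb, where 25.3% of the AML1-ETO-only summits lay.

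**Figure D3:**
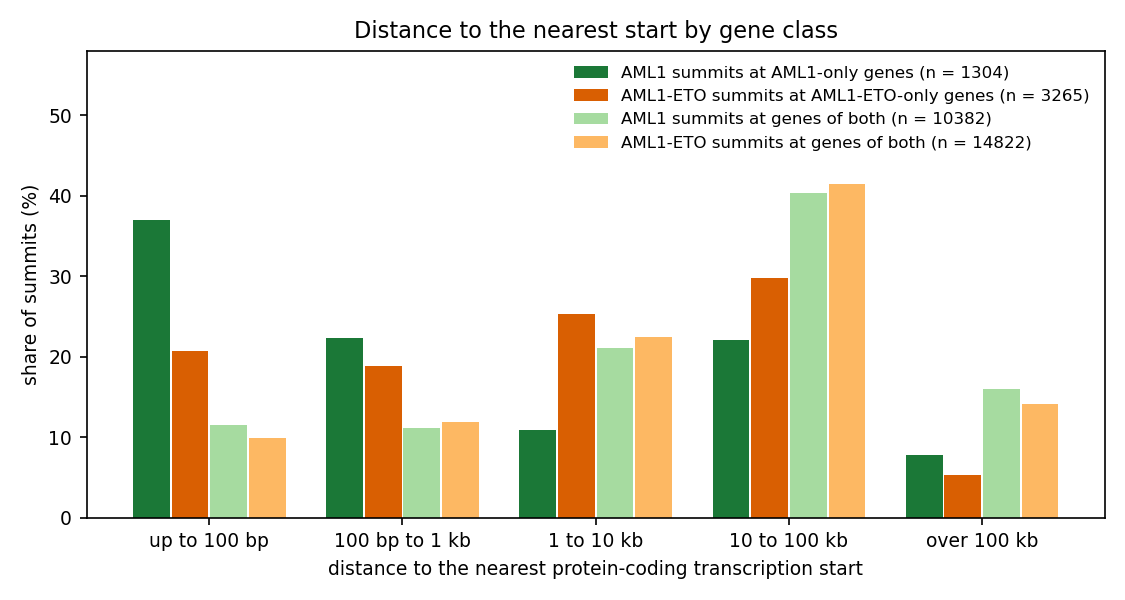
Share of summits (y axis, %) by distance to the nearest protein-coding start (x axis) for each list and gene class. AML1 at AML1-only genes has its tallest bar at up to 100 bp (37.0%), whereas both lists at genes of both peak at 10 to 100 kb (40.3% and 41.5%).

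N-CoR marked genes of both far more than exclusive genes. N-CoR windows overlapped 51.3% of AML1 and 43.9% of AML1-ETO summits at genes of both, but 13.0% (11.2 to 14.9) of summits at AML1-only and 16.1% (14.8 to 17.4) at AML1-ETO-only genes. By gene, an N-CoR summit was nearest to 70.3% of genes of both, 671 of 2483 AML1-ETO-only genes, 20.6% of AML1-only genes and 4.61% of genes with neither. The summit share at AML1-only genes minus that at AML1-ETO-only genes was -3.12 points (-5.32 to -0.810). Within 1 kb of a start the shares were 14.4% and 14.4%, and beyond it 10.9% and 17.2%. Within genes of both, N-CoR was found mainly where the lists overlapped. It overlapped 59.4% of AML1-ETO summits that overlapped AML1 and 24.0% of those that did not.

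The co-activator p300 and H3K4me3 differed between the exclusive classes near promoters. p300 overlapped 23.4% (21.1 to 25.8) of summits at AML1-only genes and 16.1% (14.9 to 17.4) at AML1-ETO-only genes, against 26.8% of AML1 and 23.1% of AML1-ETO summits at genes of both. Near starts the exclusive classes had 35.3% and 28.2%, and beyond 1 kb 6.03% and 8.21%, a difference whose interval (-4.46 to 0.469 points) includes 0. With p300 summits counted within 250 bp in place of overlapping windows, the excess at AML1-only genes over all positions grew from 7.28 to 19.8 points. An H3K4me3 summit lay within 1 kb of 94.7% of promoter summits at AML1-only genes and 85.7% at AML1-ETO-only genes. By gene, H3K4me3 was present at a start in 82.5% (80.2 to 84.6) of AML1-only genes, 72.3% (70.4 to 74.0) of AML1-ETO-only genes, 76.4% of genes of both and 48.3% of genes with neither.

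TGTGGT, searched on both strands, was commonest at distant AML1 sites. Beyond 1 kb it was present in 54.8% (50.5 to 59.1) of summit windows at AML1-only genes, 30.3% at AML1-ETO-only genes, and 48.7% of AML1 and 38.2% of AML1-ETO windows at genes of both. Within 1 kb the shares were 14.4%, 9.53%, 18.4% and 16.0%, beside 4.11% of 100 bp windows at all 78178 protein-coding starts. Windows 1 kb to either side of the summits held the motif in 6.10% at AML1-only and 6.16% at AML1-ETO-only genes. The letters GAGGAA, read by the ETS factor PU.1, were present in 11.4% of promoter windows at AML1-only and 13.7% at AML1-ETO-only genes, beside 10.5% at all starts, and in 23.9% and 26.3% beyond 1 kb. The intervals of both differences (-5.26 to 0.734 and -6.52 to 1.89 points) include 0, although the shares over all positions were 16.5% and 21.3%. CCGGAA, the core of many other ETS factors, was present in 21.3% (18.5 to 24.4) of promoter windows at AML1-only and 13.7% (11.9 to 15.7) at AML1-ETO-only genes, beside 9.80% at all starts. Its shares beyond 1 kb were 3.95% and 5.12%, a difference whose interval (-2.99 to 1.07 points) includes 0. AGGAAG, which can overlap GAGGAA by all but its last letter, was present in 15.1% and 16.6% of promoter windows of the exclusive classes, beside 13.1% at all starts, and in 36.2% and 38.4% beyond 1 kb, and the intervals of these differences include 0 as well. GC content also differed, with 62.7% of bases at AML1-only and 67.3% at AML1-ETO-only promoter summits and 46.9% and 55.3% beyond 1 kb, and its part in the motif shares was not tested.

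**Figure D4:**
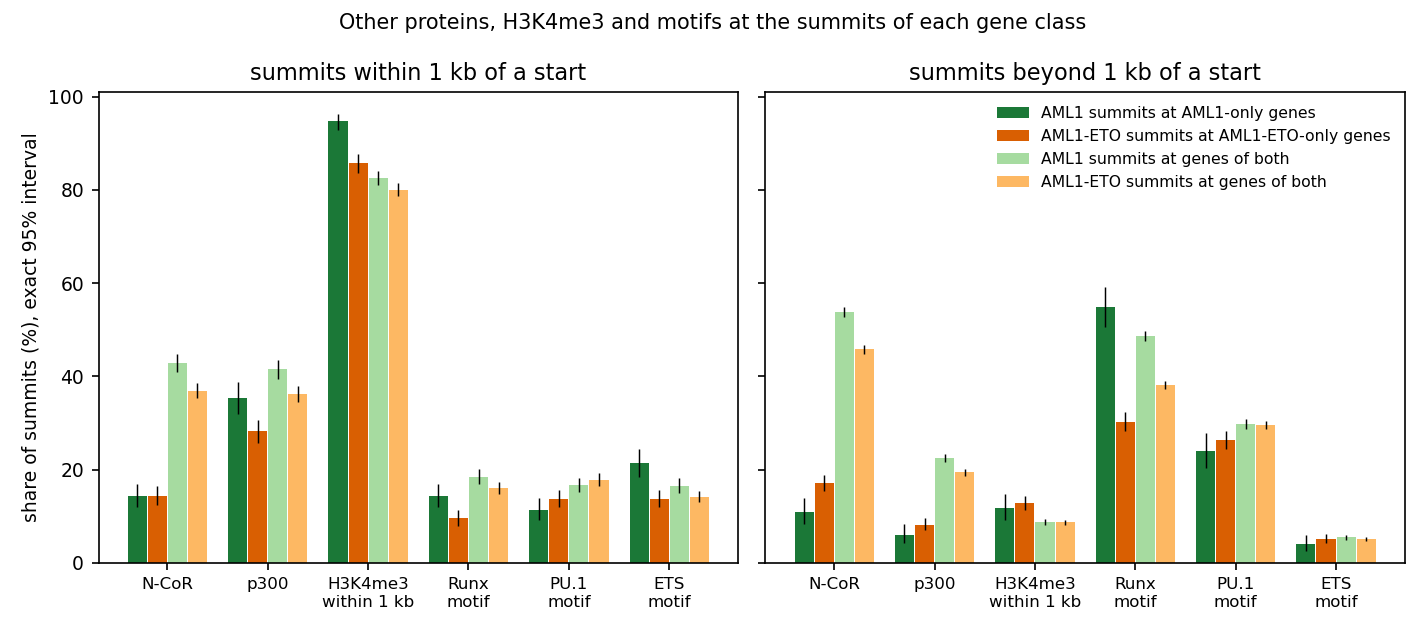
Share of summits (y axis, %) with an overlapping N-CoR or p300 window, an H3K4me3 summit within 1 kb, or the Runx (TGTGGT), PU.1 (GAGGAA) or ETS (CCGGAA) letters, for summits within 1 kb of a start (left) and beyond (right); bars are list and gene class and error bars exact 95% intervals. The N-CoR bars of genes of both exceed those of the exclusive classes on either side, and the Runx bar of AML1-only genes is tallest beyond 1 kb (54.8%).

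The counts that follow set the members of each list beside the background shares of 6.18% for AML1 only, 12.8% for AML1-ETO only and 29.6% for both, and no test of the lists was made. Among lists of basic cell machinery, AML1-only shares ran from near that background to 19.6%. Of 89 cytosolic ribosomal protein genes, 17 (19.1%) were AML1 only, 12 (13.5%) AML1-ETO only and 23 (25.8%) both. The AML1-only members included RPL3, RPL5, RPL7A, RPL11, RPL14, RPLP0, RPS7, RPS13, RPS16, RPS25 and RPS26, and 16 of the 17 had the summit within 1 kb of a start, against 63.5% of all AML1-only genes. Of the 18 AML1 summits at these 17 genes, 2 (11.1%) overlapped an AML1-ETO summit assigned to a neighbouring gene, against 1.30% at all AML1-only genes, so that these stand as AML1 only through the assignment. The same held for 1 of 12 AML1 summits at the AML1-only splicing genes described next, 1 of 8 at translation initiation factors and 1 of 3 at respiratory complex I. RPS25 had it at 24 bp, RPLP0 at 39 bp, RPL11 at 45 bp and RPL5 at 62 bp. The AML1-ETO-only members included RPS19, with 2 summits, RPL8, RPL10, RPS3 and RPS6. Many ribosomal protein genes have near-identical processed pseudogenes, so reads within these genes may have been lost or divided; how the mapping treated them was not tested.

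Of 56 Sm and other splicing genes, 11 (19.6%) were AML1 only and 3 AML1-ETO only. The 11 included SNRPE, SNRPF and SNRPG of the Sm ring, SF3A1 and SF3B2 of the U2 particle, PRPF3 and PRPF8 of the tri-snRNP and SRSF4, and 10 of them had a summit within 1 kb. SNRPG had it at 8 bp, SNRPE at 26 bp and SF3B2 at 88 bp. Of 48 proteasome subunit genes, 9 (18.8%) were AML1 only, among them PSMA3, PSMA5 and PSMC4, and 7 AML1-ETO only, among them the immunoproteasome subunit PSMB9. Translation initiation factors had 8 of 52 (15.4%) in the AML1-only class, ATP synthase 3 of 18, and general transcription factors and RNA polymerase subunits 11 of 77 (14.3%). In DNA replication, AML1 stood alone at CDC6, MCM6, ORC3, ORC6, PCNA and RFC4, and AML1-ETO at CDC7, GINS1, MCM5, ORC4, ORC5, POLA2, POLD1 and POLD2, of 40 genes. Respiratory complex I had 3 of 37 (8.11%) AML1 only and 5 AML1-ETO only, and mitotic genes had 2 of 25 (8.00%) AML1 only and 15 with neither. Nearly all of these genes had H3K4me3 at a start, so the shares among the 12026 genes with the mark are the closer comparison. They were 8.26% for AML1 only, 14.9% for AML1-ETO only, 36.6% for both and 40.2% for neither, and 17 of the 84 marked ribosomal, 11 of the 56 marked splicing and 9 of the 45 marked proteasome genes were AML1 only. With the AML1-ETO list shortened to 11692 peaks, 20 ribosomal, 17 splicing and 12 proteasome genes were AML1 only, beside a background of 10.7%.

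**Figure D5:**
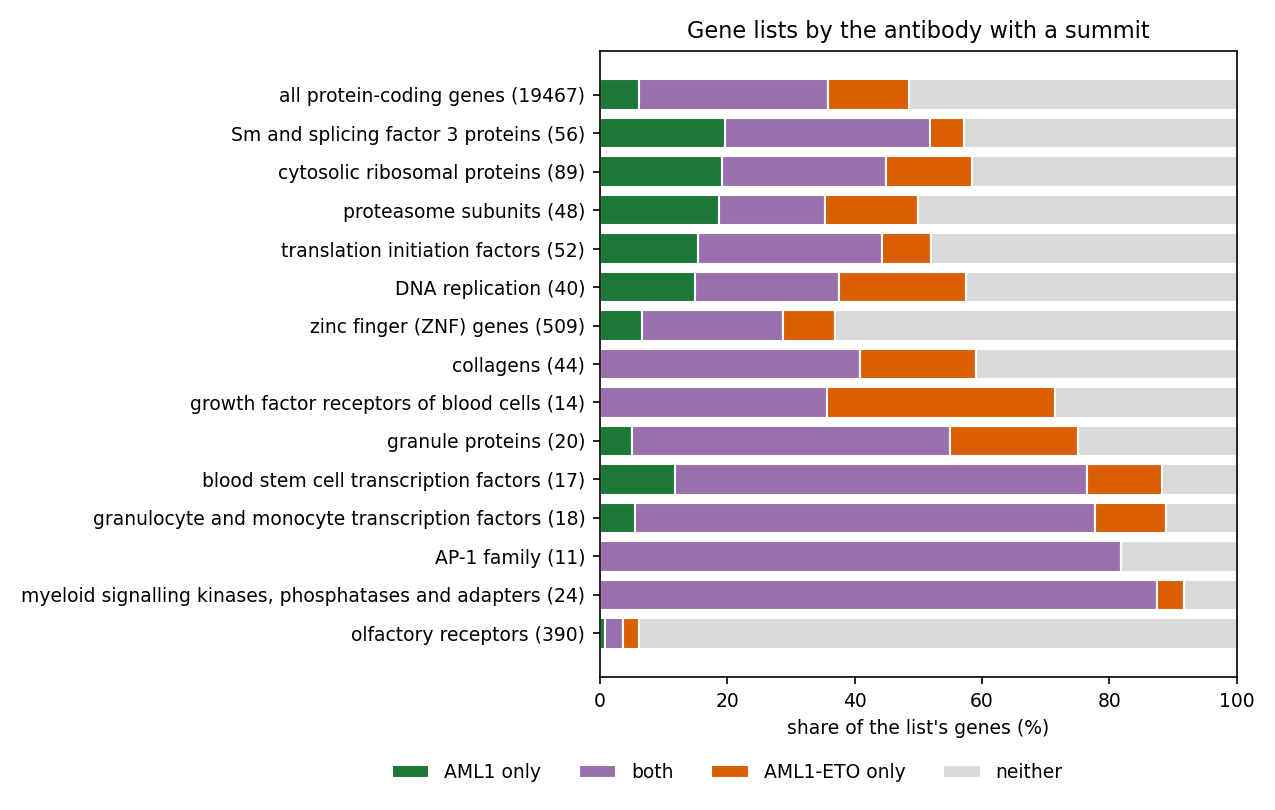
Share of each gene list (x axis, %) with AML1 summits only, summits of both, AML1-ETO summits only or neither, for 14 of the 53 lists and for all protein-coding genes (top bar); the number of genes is in parentheses. AML1-only shares are widest for splicing (19.6%) and ribosomal genes (19.1%), and the share of both is widest for myeloid signalling genes (87.5%).

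Of 24 genes for kinases, phosphatases and adapters of myeloid signalling, 21 (87.5%) were of both, none AML1 only and 1, the ubiquitin ligase gene CBL, AML1-ETO only; JAK2 and BTK had neither. At the 21, 60 of 67 AML1 summits (89.6%) overlapped AML1-ETO, against 80.3% at all genes of both. AML1-ETO summits outnumbered AML1 summits at 20 of the 21, against 2537 of all 5762 genes of both, and the other, TYROBP, had 1 of each. These are not like sets of genes. Of the 5762, 2066 had 1 summit of each list and so no excess. The 24 signalling genes had a median of 8 summits, against 3 at genes of both, and the AML1-ETO list is the longer one. SYK, a kinase of immune receptor signalling, had 4 AML1 and 10 AML1-ETO summits, SH2B3 6 and 11, PIK3CD 4 and 9, LCP2 5 and 8, VAV1 3 and 7, and PTPRC, the CD45 phosphatase, 7 and 9. SYK was an exception in that only 1 of its 4 AML1 summits overlapped AML1-ETO. Over these 21 genes N-CoR overlapped 119 of 191 summits (62.3%), against 47.0% at all genes of both.

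Of 18 transcription factors of granulocytes and monocytes, 13 (72.2%) were of both. SPI1, which encodes PU.1, had 1 AML1 and 3 AML1-ETO summits, with AML1-ETO 166 bp and AML1 1600 bp from a start. CEBPA had 1 and 4, IRF8 5 and 10, KLF4 5 and 9, GFI1 5 and 6, RARA 1 and 8, and JUNB 2 and 6. CEBPE and CEBPG had 2 AML1-ETO summits each and no AML1, and EGR1 had 1 AML1 summit, 1270 bp from its start, and no AML1-ETO. Of 17 stem cell factors, 11 were of both, and FLI1 (4 and 11), IKZF1 (6 and 10), LMO2 (3 and 7), LYL1 (4 and 5) and MYB (2 and 5) had more AML1-ETO. MEIS1, ETV6 (3 and 1) and MECOM (2 and 1) had more AML1. GATA2 (1 summit) and TCF3 (2 summits) were AML1-ETO only. HLF and MYCN were AML1 only through a summit 26557 and 357996 bp away. Counting only summits within 10 kb of a start, 7 of the 18 granulocyte and monocyte factors were of both, beside a background of 16.8%, and 18 of the 24 signalling genes. All 9 bound members of the 11 genes of the AP-1 family, which shares JUNB with the granulocyte list, were of both, with FOSL2 at 5 and 11, FOS at 3 and 7 and JUN at 6 and 7.

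Receptors of blood growth factors were divided. Of 14 such genes, 5 (35.7%) had 1 AML1-ETO summit each and no AML1, among them FLT3, CSF3R and EPOR, or 2 of 14 with the shortened AML1-ETO list, beside 6.72% of all genes under that setting. AML1-ETO lay 52 bp from a start at FLT3, which is often mutated in acute myeloid leukemia, and 120 bp at CSF3R, the receptor of granulocyte colony-stimulating factor. KIT, by contrast, had 9 AML1 and 10 AML1-ETO summits, 7 AML1 summits overlapping, IL6R had 3 and 8, CSF1R 2 and 5, IGF1R 2 and 4 and IL7R 2 and 2. None of the 14 was AML1 only. The ligand of KIT, KITLG, was AML1 only, as described above.

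Granule protein genes had 10 of 20 in the class of both, and 9 of these 10 had a summit within 1 kb, against 50.8% of all genes of both. MPO had 4 AML1 and 3 AML1-ETO summits, BPI 3 and 3, RNASE2 3 and 3, AZU1 2 and 2 and CTSG 1 and 1. LYZ, which encodes lysozyme, had 1 AML1 summit 27 bp from its start and no AML1-ETO. CAMP, EPX, LTF and PRG2 were AML1-ETO only, CAMP at 6 bp and LTF at 3694 bp. CAMP and LTF encode proteins of the secondary granules of neutrophils, and EPX and PRG2 proteins of eosinophil granules. Of the phagocyte oxidase, CYBB (4 and 8), CYBA (1 and 1), NCF4 (2 and 2) and RAC2 (5 and 5) were of both, and RAC1 was AML1-ETO only. No CYBB summit lay within 1 kb of a start, and the nearest stood at 7737 bp for AML1-ETO and 14408 bp for AML1. The authors used a Phox region labelled with this gene as negative control and reported negligible binding there. In leukotriene and prostaglandin synthesis, 9 of 13 genes were of both, with ALOX5 at 4 and 7 and ALOX5AP at 1 and 8, and LTA4H had 4 AML1-ETO summits and no AML1. Of 21 surface marker genes, 14 were of both, among them CD34 (4 and 8), CD38 (4 and 5) and CD33 (2 and 3). CD86 alone was AML1 only, at 73 bp.

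The partners and relatives of the proteins themselves were mostly of both. RUNX2 had 6 AML1 and 9 AML1-ETO summits, RUNX3 6 and 11, and CBFA2T3, a relative of ETO, 6 and 9. RUNX1T1 had 2 of each, the nearest 421371 bp from its start. CBFB was AML1 only, with 2 summits of which the nearer lay 10995 bp from a start. Of 27 co-repressor and co-activator genes, 17 (63.0%) were of both. TBL1XR1 had 9 AML1 and 13 AML1-ETO summits, TLE3 4 and 9, TLE4 7 and 7 and EP300, which encodes p300, 2 and 3. CREBBP and HDAC2 were AML1-ETO only and MED1 and NCOA1 AML1 only, while NCOR1, which encodes N-CoR, had neither.

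Genes of the G1 phase of the cell cycle fell on different sides. The inhibitors CDKN1B (2 summits), CDKN1C and CDKN2A and the cyclin CCND1 (4 summits) were AML1-ETO only, the nearest summit being 488 bp from a start at CDKN1B and 8970 bp at CCND1. CDK4, at 74 bp, and the retinoblastoma gene RB1, at 2 bp, were AML1 only. These are 6 of 16 such genes, and 5 were of both. Among DNA repair genes, 8 of 40 were AML1-ETO only, including MSH6, FANCD2 and PARP1, and ATR, FANCL and MSH3 were AML1 only, although 1 of their 3 AML1 summits overlapped an AML1-ETO summit assigned to a neighbouring gene. Of 19 epigenetic and cohesin genes mutated in leukemia, KDM6A (116 bp), KMT2D (117 bp) and RAD21 (25532 bp) were AML1 only and BCORL1 and IDH2 AML1-ETO only.

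Other gene families varied. Of 390 olfactory receptor genes, 366 had neither list, and 137 of 149 keratin and keratin-associated genes had neither. Collagens had 26 of 44 genes bound (59.1%), beside 48.5% of all protein-coding genes, with no AML1-only member, 8 AML1-ETO only and 18 of both, and 2 of the 18 had a summit within 1 kb of a start, beside 50.8% of all genes of both. ZNF zinc finger genes were at background for AML1 only (34 of 509, 6.68%) and had 42 AML1-ETO-only genes (8.25%) and 112 of both.

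By their medians in the deposited order of the peaks, exclusive sites stood late, as did unshared sites at genes of both. AML1 summits at AML1-only genes stood at a median of 66.8% of the way down the AML1 list and AML1-ETO summits at AML1-ETO-only genes at 66.2% of theirs, against 47.7% and 45.3% at genes of both. Summits at genes of both that did not overlap the other list stood at 66.3% for AML1 and 64.8% for AML1-ETO. The sources used here do not say what the order means. The head of the AML1 list differed from these medians, since the 5 earliest AML1-only peaks were among its first 9. They lay at promoters. AP5Z1 held peak 2 of the AML1 list 32 bp from a start, CLCN6 peak 4 at 17 bp, ATG3 peak 6 at 9 bp, KAT5 peak 8 and FAM118B peak 9, each at 5 bp. The earliest AML1-ETO-only peaks were peak 159 at FOXL2, 692 at RAB4B and 694 at TSPAN32. The earliest of both were at ADCY7, RPS6KA1 and CCND3 (peaks 1, 2 and 3 of the AML1-ETO list) and at LAMP1 and ATP6V0D1 (peaks 1 and 3 of the AML1 list). At ATP6V0D1 the windows did not overlap, and its only AML1-ETO summit was peak 10809.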

How the data were processed

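ChIP-seq libraries of Kasumi-1 cells were aligned to GRCh37/hg19 by the authors with bowtie 0.12.8, after base calling with CASAVA 1.6; the 2 replicates of each antibody were pooled and peaks called with MACS2 2.0.10.20131216 at p 1e-20. The deposited lists hold 100 bp windows around summits, with positions only and no score, count or signal. H3K27me3 and input were not used here. From these windows, summits (the window's start plus 50 bp) were assigned to the nearest of 78178 starts of protein-coding transcripts of 19467 genes (GENCODE release 44 lifted to GRCh37), leaving out readthrough genes and the mitochondrial chromosome; ties went to the symbol that sorts first. Windows sharing at least 1 bp overlap. Shares have exact Clopper-Pearson 95% intervals, and intervals of a difference combine the distances to the intervals of both shares. Genes were named as those with most summits per class (10), the largest excess (5), the lowest peak numbers (5), the study's loci and members of 53 lists; some genes that this rule names are not reported here. Gene classes, members and lists were chosen with earlier results of these data known. Placement was run on simulated data, with 3000 of 3000 planted genes recovered. The planted summits lay close to starts that stood apart from those of other genes, so recovery was set by the design. It checks the code only, and distant summits and paired starts were not simulated. Python 3.11.15, SciPy 1.17.1 and pysam 0.24.0 were used. Alternatives are given in the closing section.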

Additional observations from a re-analysis of the deposited data

Results flagged for a closer look

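The AML1 list held 6 summits on the mitochondrial chromosome, which no comparison of the gene classes used. The AML1-ETO and p300 lists held 0, and the N-CoR and H3K4me3 lists 1 each. It was picked out because 6 lies above the 3 that a count of 0 allows.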

How the results depend on the processing

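Of 87 alternative values for 18 results, 58 lay within 1.5 times the count given or inside the 95% interval of the share or difference given, 26 lay outside and 3 changed sign. Near the limit, genes of both numbered 8522 with the nearest start on either side. With non-coding genes included, 1884 genes were AML1 only and 4366 AML1-ETO only. With summits limited to 1 kb or 10 kb of a start, 1870 and 3270 genes were of both. The first 5000 peaks of each list gave 994 AML1-ETO-only genes and 2266 of both, and 26.8% of AML1-only and 11.4% of AML1-ETO-only genes kept their class; the AML1-ETO list shortened to the length of the AML1 list gave 2078 AML1-only and 1309 AML1-ETO-only genes. The promoter share of AML1-only minus AML1-ETO-only genes was 15.4 points at 2.5 kb and 10.8 points in the first 5000 peaks. AML1 summits at genes of both had an AML1-ETO summit within 25, 250 and 1000 bp in 47.2%, 83.0% and 85.9%. The same difference between exclusive classes was, for N-CoR, -0.0478 points at promoter and -6.25 at other summits; for p300, 19.8 points within 250 bp and -2.18 at other summits; for H3K4me3, 8.95 at promoter and -1.09 at other summits; for TGTGGT, 4.83 at promoter and 24.5 at other summits and 12.9 with TGCGGT counted too; for GAGGAA, -2.33 and -2.43 in place of -4.86 over all summits; for AGGAAG, -1.44 and -2.24 in place of -6.07; and for CCGGAA, -1.16 at other summits. With 100 bp to either side of the summit, the CCGGAA difference over all summits was 10.6 points in place of 5.75. The p300, H3K4me3 and CCGGAA values changed sign only beyond 1 kb of a start, and the cause was not tested. AML1-only splicing genes numbered 17 with the shortened list, granulocyte and monocyte factors of both 7 within 10 kb, and AML1-ETO-only growth factor receptors 2 with the shortened list. The count of lists among genes with H3K4me3 at a start was chosen after seeing the data. No paired analysis was possible because each antibody has 1 pooled list. Read depth is not recorded in the lists, so a gene without a site may hold binding below the peak threshold, and the nearest start need not be the gene that a distant site acts on.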

Other observations

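Of 18 T cell genes, 7 were of both, CD8A and TCF7 AML1 only, and CD247, CD28 and LCK AML1-ETO only. Of 15 B cell genes, 8 had neither, CD79B, CR2, PAX5 and VPREB1 were AML1-ETO only and none was AML1 only. Of 18 erythroid genes, 12 had neither and ANK1 and KLF1 were AML1-ETO only. MHC class II genes with CIITA had 10 of 13 with neither, HLA-DMB and HLA-DQA1 being AML1-ETO only. The NF-kB pathway had 11 of 20 genes of both and none AML1 only, IKBKG, NFKBIE and TRAF1 being AML1-ETO only. Toll-like receptor genes with CD14 and MYD88 had 4 of 16 AML1-ETO only, which were MYD88, TLR1, TLR5 and TLR9, and none AML1 only.

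Chemokines and their receptors had 2 AML1-only (CCR2 and CXCL6), 11 AML1-ETO-only and 22 genes of both among 67, interleukin receptors 1, 3 and 19 among 35, and integrin subunits 1, 5 and 11 among 26. Leukocyte immunoglobulin-like, Siglec and Fc receptors had 3, 11 and 21 among 69. Mitochondrial ribosomal proteins had 8 (10.3%) AML1-only, 12 AML1-ETO-only and 27 genes of both among 78, tRNA synthetases 3, 2 and 13 among 35, and Mediator subunits 3, 6 and 14 among 30. Core and linker histones had neither at 52 of 68 genes, and HOX genes at 27 of 39. All of these counts stand beside 6.18% AML1 only, 12.8% AML1-ETO only and 29.6% both among all protein-coding genes, and none was tested.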
